A study of Mus musculus with 6 samples.

Results

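The genes described here encode the pore-forming and accessory subunits of plasma membrane and organellar ion channels in cultured mouse fibroblasts. They were chosen by symbol, as the potassium (Kcn), sodium (Scn), calcium (Cacna, Cacnb, Cacng), TRP, CLC chloride (Clcn), anoctamin (Ano), P2X and PIEZO families, and by a mean of at least 50 raw counts over the 6 libraries. Of 25140 genes listed, 152 had such a symbol, and 53 of these reached the minimum while 99 did not. All 53 are protein-coding, lie on 16 chromosomes, and were kept by the filter on low counts.

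The cells were labelled primary cardiac fibroblasts of C57BL/6 mice, taken from the adult heart and used at passage 1. The study's methods also name cardiac fibroblasts, but its results text and figure legends call the sequenced cells mouse embryonic fibroblasts. All cultures were grown in medium with 25 mM glucose and 10% serum, and all had their serum lowered to 1% for 16 h. Then 3 replicate cultures received vehicle and 3 received TGFβ at 10 ng/mL, each for 24 h. The question of the comparison was which genes change as TGFβ, the main fibrotic cytokine, turns fibroblasts into myofibroblasts. Libraries held 27851677 to 31072338 counts, and the biological coefficient of variation was 7.97%.

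Ion channels set the membrane potential and let calcium, sodium and chloride cross membranes. Fibroblasts are not excitable in the way cardiomyocytes are, yet they carry voltage-gated, inwardly rectifying, mechanosensitive and calcium-activated channels. Calcium entry through TRP and other channels has been linked in many studies to myofibroblast formation, and potassium channels set the driving force for that entry. PIEZO channels open when the membrane is stretched, and CLC exchangers and TRPM7 act largely in vesicles and in divalent cation balance.

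The label of the cells was checked against marker genes. The 9 fibroblast markers summed to 53177 to 63010 CPM (reads of a gene scaled to library size, on TMM-scaled library sizes) in vehicle and 49755 to 55614 CPM in TGFβ libraries. Of these, 7 were called lower with TGFβ, among them *Pdgfra*, *Lum* and *Col3a1* (log2 fold change -1.37, -0.96 and -0.94), and *Col1a1* and *Col1a2* were not called. The cardiac transcription factor markers *Tcf21*, *Gata4*, *Gata6*, *Tbx20* and *Tbx5* summed to 999 to 1161 CPM in vehicle and 717 to 760 CPM in TGFβ libraries, with *Tcf21* and *Tbx20* lower (log2 fold change -1.05 and -0.53) and the other 3 not called. The part of these marker differences in the channel results was not tested. The 4 myofibroblast markers, *Acta2*, *Postn*, *Tagln* and *Cnn1*, were each higher with TGFβ and summed to 2921 to 3359 CPM in vehicle and 6944 to 7675 CPM in TGFβ libraries. Cardiomyocyte markers summed to no more than 59.7 CPM, nearly all of it *Tnnt2*, with *Actn2* and *Pln* at a mean of under 3 counts and *Myh7* not listed. Endothelial markers summed to 403 to 675 CPM and leukocyte markers to 215 to 362 CPM, in both groups together. The 6 pericyte markers summed to 1329 to 1405 CPM in vehicle and 1321 to 1341 CPM in TGFβ libraries, most of it *Pdgfrb*. Among them *Notch3* was lower and *Cspg4* higher (log2 fold change -1.85 and 1.45), and the other 4 were not called. The part of such cells in the channel results was not tested. In such bulk samples, fewer cells of a type and less RNA per cell cannot be told apart.

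By level, given as CPM per kb of annotated exons so that genes of different length can be compared, the channels spanned nearly 3 orders of magnitude. *Kcne4*, an inhibitory accessory subunit of voltage-gated potassium channels, had the highest level, 106 in vehicle and 93.4 in TGFβ libraries. The stretch-gated cation channel *Piezo1* was at 35.5 over both groups. The calcium channel subunit *Cacnb3* followed at 21.04, the lysosomal chloride/proton exchanger *Clcn7* at 20.3, *Ano10* at 16.3, the scramblase and channel *Ano6* at 15.0 and the sodium channel *Scn7a* at 13.6. *Kcnn3*, a small-conductance calcium-activated potassium channel, was lowest at 0.169. As a group they were low in level, with a median of 1.55 CPM per kb against 6.03 over genes with a mean count of at least 50. They were also long, with a median exon length of 6.31 kb against 4.60 kb and a median gene span of 52.5 kb against 24.7 kb. Level took part in the choice of the genes, so these values are a description.

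**Figure D1:**
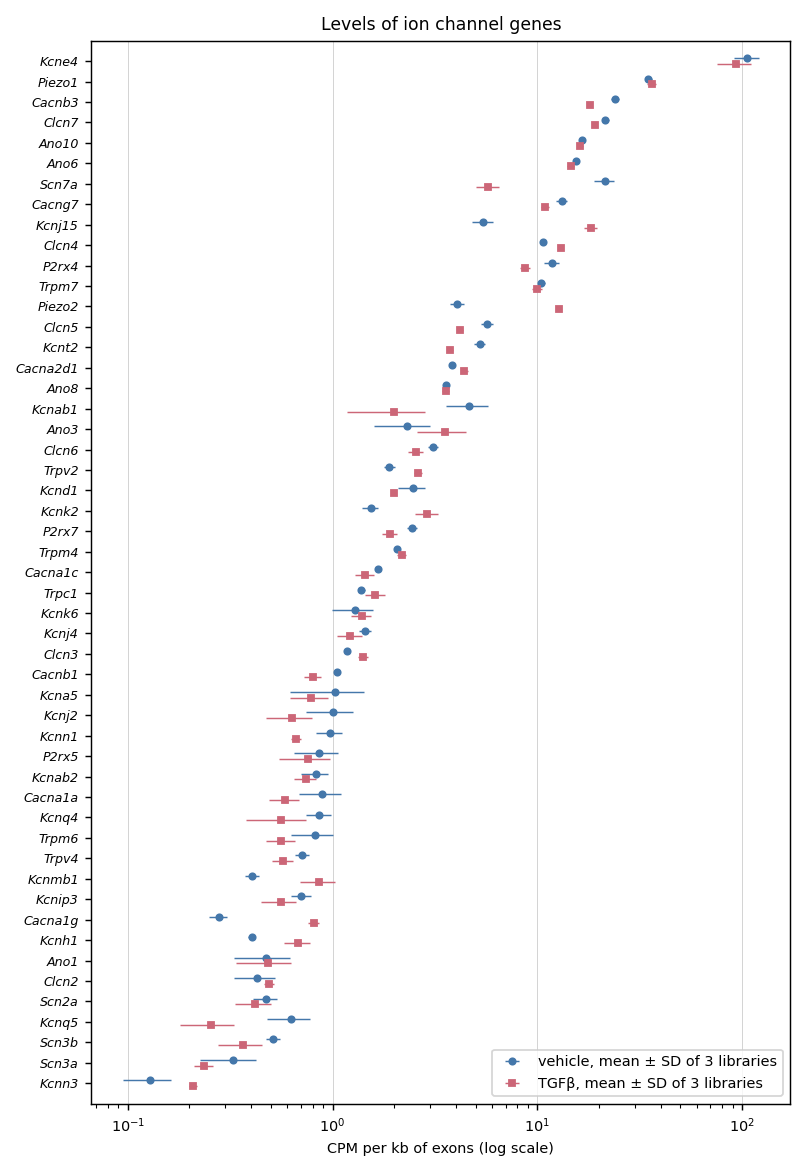
Levels of ion channel genes, in CPM per kb of exons on a log axis, as mean ± SD of 3 vehicle (circles) and 3 TGFβ (squares) libraries, ordered by the mean of both groups. *Kcne4* is at the top and *Kcnn3* at the bottom, and the 2 symbols lie far apart for *Scn7a*, *Kcnj15*, *Piezo2* and *Cacna1g*.

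With TGFβ, 11 of the 53 genes were called higher and 16 lower at an adjusted p below 0.05 (edgeR's quasi-likelihood test, Benjamini-Hochberg adjustment over 14334 genes tested), and 26 were not called. The calls were 20.8% of the channel genes upward and 30.2% downward. Over all genes tested, 20.5% were called higher and 20.1% lower, and over the 11960 tested genes with a mean count of at least 50, which is the fairer background, 23.3% and 21.4%. The upward share thus lay near the background and the downward share above it, with no test of that difference. At an adjusted p below 0.01 the order was reversed, with 10 channel genes called higher and 8 lower. No background by direction was taken at that threshold, so the larger downward share is given for 0.05 only. Rises of at least 1 on the log2 scale were found in 4 channel genes (7.55%), *Kcnj15*, *Piezo2*, *Cacna1g* and *Kcnmb1*, against 1.81% of genes at that count minimum, and falls of that size in 3 (5.66%), *Scn7a*, *Kcnq5* and *Kcnab1*, against 3.5%. The median log2 fold change was -0.18 over the channel genes and 0.01 over genes at that count minimum. The median size of the change, either way, was 0.38 and 0.19 on the log2 scale. This background was not matched in level or spread. The channel genes had a median of 1.55 against 6.03 CPM per kb. Their median coefficient of variation among vehicle libraries was 8.06% against 5.10%. The part of these differences in the larger sizes of change was not tested. The CPM of the 2 groups did not overlap for 32 channel genes, 11 with all TGFβ libraries above (background 30.3%) and 21 with all below (background 26.9%). An exact permutation test of 3 libraries against 3 cannot give a p below 0.1, so the fit over all genes was used for single genes.

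**Figure D2:**
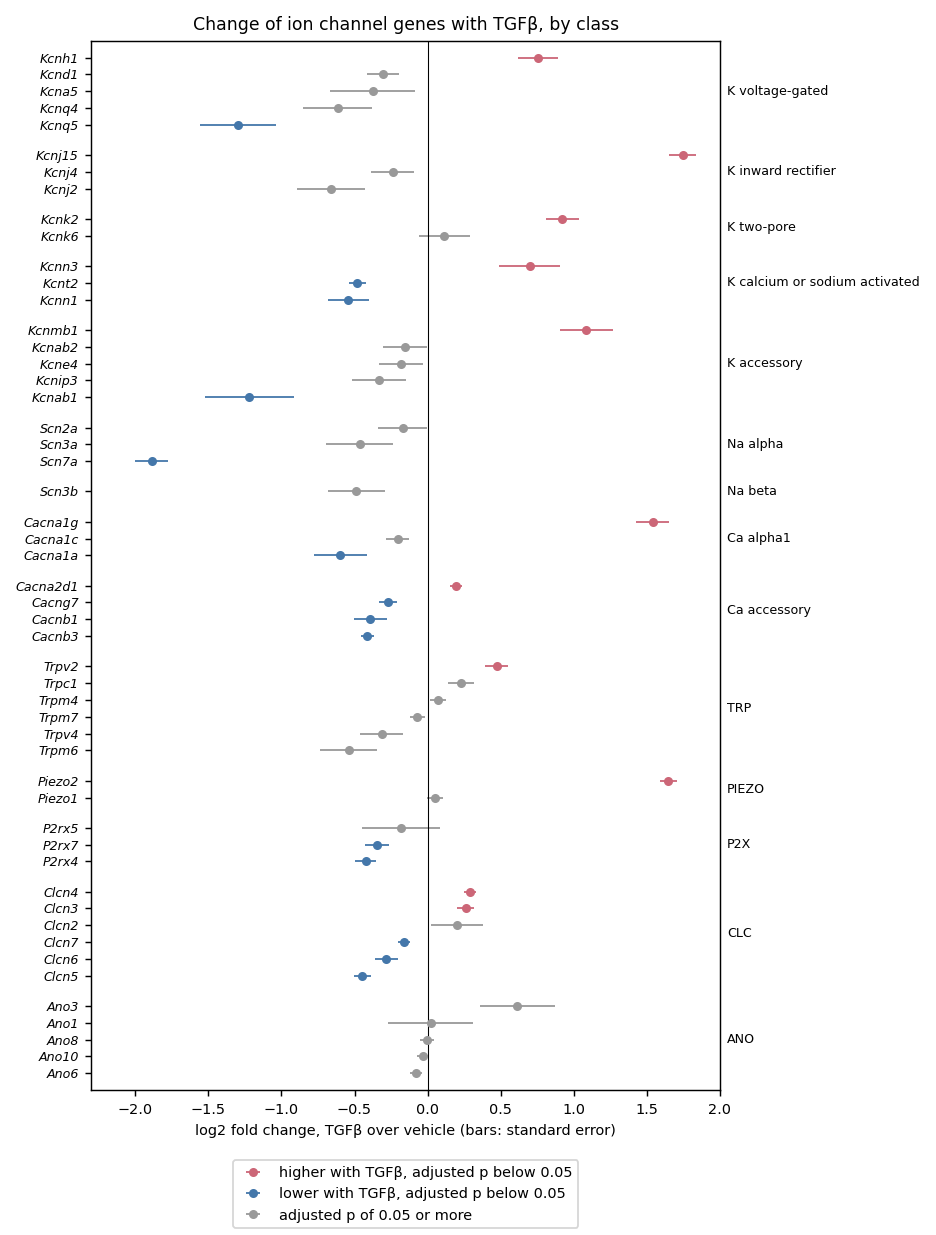
Change of ion channel genes with TGFβ against vehicle, on the log2 scale and grouped by class, with the standard error as a bar and the call by colour (red higher, blue lower, grey not called). Calls in both directions occur among the potassium channel, calcium channel and CLC genes, the sodium channel genes drawn lie left of 0, and the ANO genes hold no call.

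The promoters of channel genes that changed are shown so that a reader can see the DNA next to the start sites. RefSeq promoters on GRCm38.p6 were found for 40 of the 53 genes, and 23 of these had exactly 1 listed start. From these, the 2 with the largest called rises (*Kcnj15*, *Kcnmb1*) and the 2 with the largest called falls (*Scn7a*, *Kcnt2*) are printed as the 250 bases before the start, 5′ to 3′ on the strand of the gene, with the letters CAGAC or GTCTG, the core SMAD-binding element on either strand, or TGANTCA, an AP-1 element, in capitals. They cover chr16:95257308-95257557 (plus), chr11:33962763-33963012 (plus), chr2:66784911-66785160 (minus) and chr1:140245468-140245717 (plus).
Kcnj15: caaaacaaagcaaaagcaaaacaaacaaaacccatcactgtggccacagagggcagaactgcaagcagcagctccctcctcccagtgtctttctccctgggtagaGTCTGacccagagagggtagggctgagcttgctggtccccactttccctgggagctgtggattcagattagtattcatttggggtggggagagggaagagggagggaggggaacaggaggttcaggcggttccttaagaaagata
Kcnmb1: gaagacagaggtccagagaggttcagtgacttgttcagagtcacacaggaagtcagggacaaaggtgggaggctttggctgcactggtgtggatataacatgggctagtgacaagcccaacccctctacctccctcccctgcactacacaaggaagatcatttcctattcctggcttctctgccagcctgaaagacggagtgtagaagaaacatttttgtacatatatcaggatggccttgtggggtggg
Scn7a: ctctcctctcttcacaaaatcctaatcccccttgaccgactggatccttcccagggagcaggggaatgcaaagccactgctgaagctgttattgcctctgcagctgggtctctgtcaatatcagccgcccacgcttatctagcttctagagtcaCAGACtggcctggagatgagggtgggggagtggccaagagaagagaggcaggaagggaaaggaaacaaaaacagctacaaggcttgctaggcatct
Kcnt2: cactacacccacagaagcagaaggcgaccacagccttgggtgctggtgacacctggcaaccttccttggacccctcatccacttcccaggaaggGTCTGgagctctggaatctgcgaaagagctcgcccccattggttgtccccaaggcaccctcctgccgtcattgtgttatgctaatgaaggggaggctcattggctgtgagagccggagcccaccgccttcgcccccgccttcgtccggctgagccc
In these windows *Kcnj15*, *Scn7a* and *Kcnt2* each hold 1 match to the SMAD letters and *Kcnmb1* none, and none holds the AP-1 letters. All were modest in CpG dinucleotides except *Kcnt2*, with 10 against 1, 1 and 3.

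Of the 19 potassium channel genes, 5 were called higher and 5 lower (26.3% each way). Over genes with a mean count of at least 50 the shares were 23.3% and 21.4%. By sign alone, 6 of the 19 had a positive and 13 a negative log2 fold change, with a median of -0.30. The largest rise was that of *Kcnj15* (chromosome 16, bases 95257558 to 95300260 of GRCm38, plus strand), which encodes the inward rectifier Kir4.2. It was at 35.8, 29.8 and 37.7 CPM in the vehicle libraries and at 122, 106 and 118 CPM in the TGFβ libraries. The lowest TGFβ library was thus well above the highest vehicle library. The log2 fold change was 1.74 with a standard error (SE) of 0.09 (adjusted p = 1.31e-05, edgeR), a 3.35-fold rise. Its printed promoter window holds GTCTG. The other inward rectifiers did not follow it. *Kcnj2*, which encodes Kir2.1, was at 4.27, 5.09 and 7.04 CPM in vehicle and 3.03, 2.86 and 4.45 CPM in TGFβ libraries, so that the groups overlapped (log2 fold change -0.66, SE 0.23, adjusted p = 0.056, edgeR), and *Kcnj4* was not called either (log2 fold change -0.24, adjusted p = 0.236, edgeR). In CPM per kb the share of *Kcnj15* in the sum of the 3 inward rectifiers was 69.0% ± 2.19 (SD, n = 3) in vehicle and 90.8% ± 1.32 (SD, n = 3) in TGFβ libraries, and the sum itself was 7.90 ± 0.906 and 20.1 ± 1.51.

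*Kcnk2*, the stretch- and lipid-sensitive background channel TREK-1, was also higher. Its CPM was 7.10, 8.36 and 7.27 in vehicle and 13.4, 16.5 and 13.2 in TGFβ libraries. The groups were clear of each other (log2 fold change 0.92, SE 0.11, adjusted p = 0.00055, edgeR). *Kcnk6*, the other two-pore channel among them, had a log2 fold change of 0.11 with a 95% interval of -0.29 to 0.52.

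Among the voltage-gated members, *Kcnh1* (EAG1, a slowly activating channel studied for its part in cell proliferation) was higher, at 2.83, 3.07 and 2.95 CPM in vehicle and 4.35, 4.80 and 5.79 CPM with TGFβ (log2 fold change 0.76, SE 0.14, adjusted p = 0.00365, edgeR). In the other direction *Kcnq5*, a channel of the M-current family, was at 5.25, 3.51 and 5.70 CPM in vehicle and 2.30, 1.29 and 2.28 CPM in TGFβ libraries. All TGFβ libraries were below the lowest vehicle library (log2 fold change -1.30, SE 0.26, adjusted p = 0.00585, edgeR). The class leader by level, *Kcnd1* (Kv4.1), was lower in every TGFβ library, 10.3 to 10.9 against 11.3 to 15.1 CPM, but missed the threshold (log2 fold change -0.30, adjusted p = 0.0578, edgeR).

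The accessory subunits of potassium channels went both ways. *Kcnmb1*, the β1 subunit that raises the calcium sensitivity of the BK channel, was at 1.82, 1.55 and 1.71 CPM in vehicle and 3.66, 2.86 and 4.28 CPM in TGFβ libraries, with no overlap (log2 fold change 1.08, SE 0.18, adjusted p = 0.00253, edgeR). Smooth muscle is where this subunit is best known. Of the 4 smooth muscle markers, *Smtn* and *Lmod1* were higher and *Myh11* and *Des* were not called, and their sum was 129 to 152 CPM in vehicle and 143 to 198 CPM in TGFβ libraries. Whether such cells had a part in the *Kcnmb1* difference was not tested. The BK pore gene itself, *Kcnma1*, named after its values were seen, had a mean of only 18.2 counts and was not called (log2 fold change 0.68, adjusted p = 0.146, edgeR). *Kcnab1*, a cytoplasmic β subunit of Kv1 channels, was lower, with 44.1, 46.4 and 29.5 CPM in vehicle and 23.1, 19.3 and 9.26 CPM in TGFβ libraries. Its spread was wide in both groups, yet the highest TGFβ library lay below the lowest vehicle library (log2 fold change -1.22, SE 0.30, adjusted p = 0.0148, edgeR). The most abundant channel transcript, *Kcne4*, was at 293, 313 and 238 CPM in vehicle and 256, 291 and 197 CPM with TGFβ, and its groups overlapped (log2 fold change -0.18, 95% interval -0.53 to 0.16, adjusted p = 0.369, edgeR).

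Of the potassium channels opened by intracellular ions, *Kcnt2* (Slick, sodium-activated) led by level and was lower, at 34.4, 38.8 and 35.1 CPM in vehicle and 25.7, 26.8 and 25.2 CPM with TGFβ (log2 fold change -0.48, SE 0.06, adjusted p = 0.000604, edgeR). The small-conductance channels *Kcnn1* and *Kcnn3* moved in opposite directions. *Kcnn1* (SK1) was at 4.09, 5.23 and 4.06 CPM in vehicle and 2.85, 3.19 and 3.12 CPM with TGFβ (log2 fold change -0.54, adjusted p = 0.0172, edgeR). *Kcnn3* (SK3) was at 1.54, 1.55 and 0.939 CPM in vehicle and 2.23, 2.08 and 2.24 CPM with TGFβ (log2 fold change 0.70, adjusted p = 0.0311, edgeR). Both of these calls were lost on leaving out single libraries. For *Kcnn1* the adjusted p was 0.0576 when the vehicle library of 29296570 counts was left out and 0.0608 when the TGFβ library of 27851677 counts was. For *Kcnn3* it was 0.0517 with DESeq2, 0.0567 on leaving out the vehicle library of 29331999 counts, and 0.0865, 0.0655 and 0.0734 without the TGFβ libraries of 27851677, 28894151 and 28641986 counts.

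The sodium channel genes include pore-forming α subunits and accessory β subunits. *Scn7a* (chromosome 2, bases 66673425 to 66784914 of GRCm38, minus strand), the sodium-sensing channel Nax, had the largest fall among the 53 channel genes that reached the count minimum. Vehicle libraries held 146, 177 and 147 CPM and TGFβ libraries 39.7, 48.7 and 38.6 CPM. The distance between the groups was far greater than the spread within either (log2 fold change -1.89, SE 0.11, adjusted p = 2.02e-05, edgeR), a 3.70-fold fall. Its printed promoter window holds CAGAC. *Scn7a* is also known from glia and Schwann cells. The glial markers *Sox10* and *S100b* were at 0.406 and 2.63 CPM in vehicle, and neither was called (log2 fold change -0.69 and -0.13). *Sox10* had a mean of only 9.67 counts. Whether glial cells had a part in the *Scn7a* difference was not tested. The whole glia and nerve list summed to 63.1 to 103 CPM in vehicle and 158 to 228 CPM in TGFβ libraries, nearly all of it *Tubb3*, which was higher with TGFβ, and *Snap25* was not listed.

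The neuronal pore genes *Scn2a* and *Scn3a*, 53.1 kb apart on chromosome 2 and on opposite strands, were not called (log2 fold change -0.17 and -0.46, adjusted p = 0.457 and 0.144, edgeR), nor was *Scn3b* (log2 fold change -0.49, adjusted p = 0.0842, edgeR). *Scn7a* lies 906 kb from *Scn2a* in the same region. Because *Scn7a* made up 96.4% ± 0.626 (SD, n = 3) of the summed CPM per kb of the 3 α subunits in vehicle and 89.8% ± 0.766 (SD, n = 3) in TGFβ libraries, the sum fell with it, from 22.2 ± 2.40 to 6.42 ± 0.814 (SD, n = 3).

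Among the 7 calcium channel genes, 2 were higher (28.6%) and 4 lower (57.1%). Over genes with a mean count of at least 50 the shares were 23.3% and 21.4%, and the difference was not tested. *Cacna1g* (chromosome 11, bases 94408391 to 94474198 of GRCm38, minus strand), the pore of the low-voltage-activated T-type channel Cav3.1, was at 3.05, 2.50 and 2.92 CPM in vehicle and 8.74, 8.24 and 7.68 CPM in TGFβ libraries. The groups were widely separated (log2 fold change 1.54, SE 0.11, adjusted p = 5.62e-05, edgeR). *Cacna1c*, the L-type pore Cav1.2, was the most abundant α1 gene and did not pass the threshold, with 34.0, 35.5 and 35.9 CPM in vehicle and 32.4, 32.5 and 26.6 CPM with TGFβ (log2 fold change -0.20, adjusted p = 0.075, edgeR). *Cacna1a*, the P/Q-type pore, was called lower at 9.05, 12.8 and 8.58 CPM in vehicle and 6.25, 7.99 and 5.89 CPM with TGFβ (log2 fold change -0.60, SE 0.18, adjusted p = 0.0322, edgeR). That call was lost on leaving out any of 3 single libraries. Without the vehicle library of 29296570 counts the log2 fold change was -0.39 (adjusted p = 0.0812), and without the TGFβ libraries of 27851677 and 28641986 counts the adjusted p was 0.101 and 0.0849. The sum of the 3 α1 genes was 2.83 ± 0.192 CPM per kb in vehicle and 2.84 ± 0.272 in TGFβ libraries (SD, n = 3), while the share of *Cacna1g* in it went from 9.91% ± 1.62 to 28.7% ± 1.74.

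Of the 4 genes classed by symbol as accessory calcium channel subunits, 3 were called lower (75%) and 1 higher (25%). The shares over genes with a mean count of at least 50 were 21.4% and 23.3%. *Cacnb3* was at 91.8, 97.2 and 100.2 CPM in vehicle and 70.7, 73.0 and 73.4 CPM with TGFβ (log2 fold change -0.41, SE 0.04, adjusted p = 0.00031, edgeR). *Cacnb1* and *Cacng7* also fell, by 0.39 and 0.27 on the log2 scale (adjusted p = 0.0268 and 0.011, edgeR), the former call being lost with DESeq2 (adjusted p = 0.0766) and without any one of 5 libraries (adjusted p = 0.0751, 0.0692 and 0.056 without the vehicle libraries of 31072338, 29296570 and 29331999 counts, and 0.0537 and 0.0708 without the TGFβ libraries of 28894151 and 28641986 counts). *Cacna2d1*, the α2δ1 subunit and gabapentin target, was slightly higher (log2 fold change 0.19, SE 0.04, adjusted p = 0.00865, edgeR). In CPM per kb these 4 subunits summed to 42.1 ± 1.78 in vehicle and 34.2 ± 0.627 with TGFβ (SD, n = 3).

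The mechanosensitive PIEZO pair behaved unequally. *Piezo2*, best known from touch receptors, was at 64.3, 70.5 and 74.99 CPM in vehicle and 214, 220 and 223 CPM in TGFβ libraries. The replicates lay close together in each group and the groups far apart (log2 fold change 1.65, SE 0.06, adjusted p = 3.89e-06, edgeR), a 3.13-fold rise. *Piezo1* was at 362, 334 and 343 CPM in vehicle and 378, 360 and 340 CPM with TGFβ, with overlap (log2 fold change 0.05, 95% interval -0.07 to 0.18, adjusted p = 0.475, edgeR). Per length, *Piezo2* was 0.117 ± 0.0126 times the level of *Piezo1* in vehicle and 0.354 ± 0.0265 times in TGFβ libraries (SD, n = 3), so *Piezo1* stayed the more abundant of them. Of the 75-base windows of *Piezo1* exons, 11.1% also occur in another gene, and its exons overlap those of *Ctu2* on the opposite strand, which had 3.82% of its counts. Such shared windows made up 6.12% of *Kcnk2* and 4.83% of *Kcnj15*, and 0% of *Piezo2*, *Scn7a* and *Cacna1g*.

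**Figure D3:**
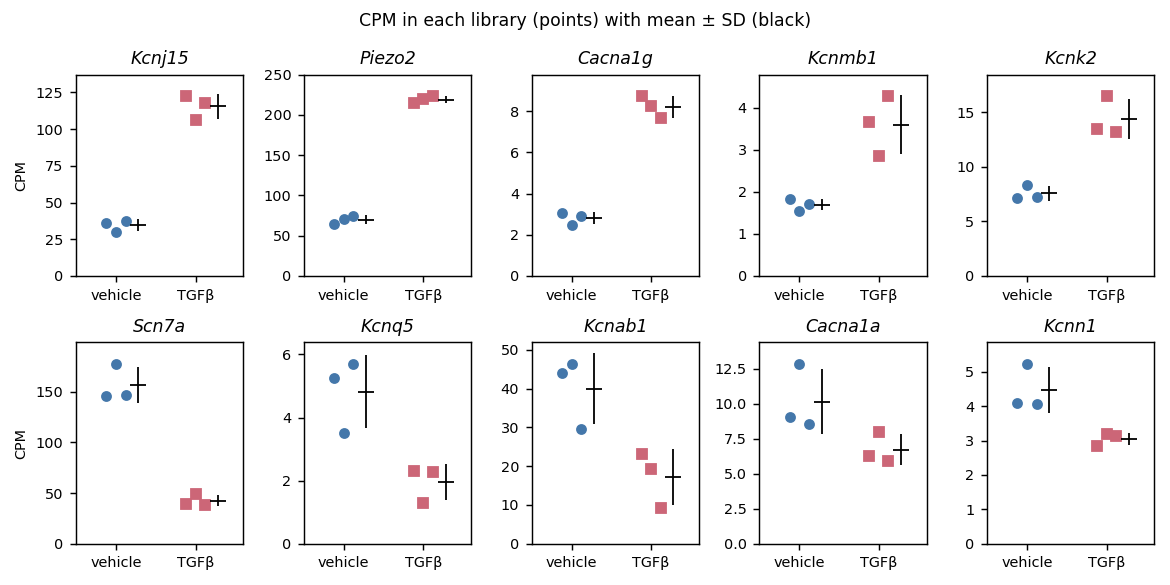
CPM in each library (points) for the 5 channel genes at the count minimum with the largest called rises (upper row) and 5 of the genes called lower (lower row), vehicle as circles and TGFβ as squares, with mean ± SD in black and each axis starting at 0. In all 10 genes the groups are separate, and the spread within a group is widest, relative to its mean, for *Kcnab1* and *Kcnq5*.

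**Figure D4:**
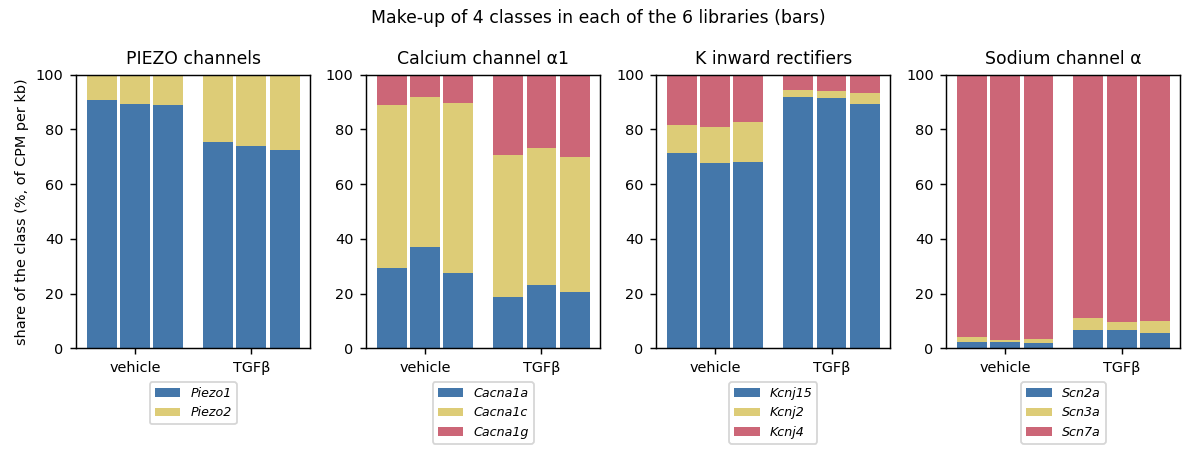
Share of each gene in the summed CPM per kb of its class, in percent, for the 3 vehicle and 3 TGFβ libraries (1 bar each) in 4 classes. The *Piezo2* part grows from 10.5% to 26.1% and the *Cacna1g* part from 9.91% to 28.7%, *Kcnj15* reaches 90.8%, and *Scn7a* stays the main sodium channel α gene at 89.8%.

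Of the 6 TRP genes only *Trpv2*, a cation channel linked to stretch and growth factor signals, was called at the threshold. That is 16.7% higher and 0% lower, against 23.3% and 21.4% of genes with a mean count of at least 50. *Trpv2* was at 7.92, 8.67 and 8.92 CPM in vehicle and 11.2, 12.1 and 12.1 CPM with TGFβ (log2 fold change 0.47, SE 0.08, adjusted p = 0.00228, edgeR). *Trpm7*, a channel fused to a kinase and the most abundant TRP gene, was at 114, 123 and 118 CPM in vehicle and 120, 111 and 108 CPM with TGFβ, with overlap (log2 fold change -0.07, 95% interval -0.19 to 0.05, adjusted p = 0.325, edgeR). *Trpm4*, *Trpc1*, *Trpv4* and *Trpm6* had log2 fold changes of 0.07, 0.23, -0.31 and -0.54 (adjusted p = 0.328, 0.0834, 0.128 and 0.0579, edgeR). The sum of the 6 TRP genes was 17.3 ± 0.637 CPM per kb in vehicle and 17.5 ± 0.159 with TGFβ (SD, n = 3).

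The ATP-gated P2X channels *P2rx4* and *P2rx7* were both lower. They are neighbours on chromosome 5, 16.1 kb apart on the same strand (bases 122643911 to 122729738 of GRCm38 span both). *P2rx4* was at 76.0, 81.8 and 89.6 CPM in vehicle and 58.2, 60.7 and 65.4 CPM with TGFβ (log2 fold change -0.42, SE 0.07, adjusted p = 0.0023, edgeR). *P2rx7*, the receptor that triggers the inflammasome in macrophages, was at 13.9, 14.3 and 15.5 CPM in vehicle and 11.4, 10.5 and 12.4 CPM with TGFβ (log2 fold change -0.35, SE 0.08, adjusted p = 0.012, edgeR). Neither overlapped between groups. Leukocytes also use both genes, and of the 7 leukocyte markers *Cd14* was lower and the other 6 were not called, with summed levels of 251 to 362 CPM in vehicle and 215 to 322 CPM with TGFβ. The part of such cells in the P2X values was not tested. *P2rx5*, close to the count minimum, was not called (log2 fold change -0.18, adjusted p = 0.62, edgeR).

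The CLC family divided by gene. The endosomal exchangers *Clcn3* and *Clcn4*, which form heteromers, were higher, and the endosomal *Clcn5*, the late endosomal *Clcn6* and the lysosomal *Clcn7* lower. *Clcn4* was at 88.7, 91.3 and 94.2 CPM in vehicle and 112, 110 and 113 CPM with TGFβ (log2 fold change 0.29, SE 0.04, adjusted p = 0.000849, edgeR), and *Clcn3* at 20.7, 19.8 and 19.7 against 25.6, 23.3 and 23.3 CPM (log2 fold change 0.26, SE 0.06, adjusted p = 0.00928, edgeR). *Clcn5*, whose loss causes Dent disease, was at 60.6, 66.8 and 68.8 CPM in vehicle and 45.9, 49.0 and 49.0 CPM with TGFβ (log2 fold change -0.45, SE 0.06, adjusted p = 0.000708, edgeR). None of these 3 overlapped between groups. *Clcn7* was at 109, 117 and 116 against 99.0, 104 and 102 CPM (log2 fold change -0.16, SE 0.04, adjusted p = 0.0192, edgeR), and *Clcn6* fell by 0.28 on the log2 scale (adjusted p = 0.0229, edgeR). The *Clcn7* call was lost without the vehicle libraries of 29296570 and 29331999 counts or the TGFβ library of 27851677 counts (adjusted p = 0.08, 0.057 and 0.0643). That of *Clcn6* was lost without the vehicle libraries of 31072338 and 29296570 counts or the TGFβ libraries of 28894151 and 28641986 counts (adjusted p = 0.0562, 0.0832, 0.0659 and 0.0558). *Clcn2*, the plasma membrane member, was not called (log2 fold change 0.20, adjusted p = 0.413, edgeR). Its exons overlap *Polr2h* and *Fam131a* on the opposite strand, which had 437% and 183% of its counts, and whether the counting used strand is not given in the sources used here, so its value is uncertain.

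None of the 5 anoctamin genes was called, where 23.3% of genes with a mean count of at least 50 were called higher and 21.4% lower. *Ano6*, the phospholipid scramblase TMEM16F, was at 193, 187 and 189 CPM in vehicle and 182, 184 and 171 CPM with TGFβ, lower in every TGFβ library but short of the threshold (log2 fold change -0.08, 95% interval -0.18 to 0.02, adjusted p = 0.172, edgeR). *Ano10* was at 100.2, 96.4 and 96.3 against 91.9, 98.2 and 96.7 CPM, with overlap (log2 fold change -0.03, 95% interval -0.13 to 0.07, adjusted p = 0.592, edgeR). *Ano1*, the calcium-activated chloride channel, had a log2 fold change of 0.02 (SE 0.29), and *Ano3* was not called (log2 fold change 0.61, SE 0.26, adjusted p = 0.0928, edgeR). *Ano8* had a log2 fold change of -0.00 (SE 0.05), but its exons overlap *Dda1* on the opposite strand, which had 327% of its counts, so that value is uncertain.

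The minimum of 50 counts cut through the channel genes. Just inside it were *Kcnn3*, *P2rx5* and *Kcnip3*, with mean counts of 51.0, 56.8 and 65.5, and just outside it *Ano4*, *Trpc6* and *Kcnh2*, with 46.7, 42.8 and 42.2. *Kcnn3* had 49, 46 and 28 counts in vehicle and 61, 58 and 64 counts in TGFβ libraries. It thus reached the minimum only through the group where it was higher. Its place among the 11 genes called higher is therefore not independent of the choice of genes. *Ano4* had 15, 14 and 14 counts in vehicle and 88, 74 and 75 counts in TGFβ libraries, and a log2 fold change of 2.58, greater than that of any gene inside the minimum. *Trpc6*, a receptor-operated calcium channel, had 42, 26 and 32 counts in vehicle and 44, 47 and 66 counts in TGFβ libraries (log2 fold change 0.77). Of the 99 genes below the minimum, 30 could be tested. Among these, 4 (13.3%) were called higher and 5 (16.7%) lower. Over all genes tested the shares were 20.5% and 20.1%, but 11960 of those 14334 genes had a mean count of at least 50. That background is therefore unlike these 30 genes in count. No share over genes below the minimum was taken, so whether theirs are high or low is not known. The 9 called were *Ano4*, *Trpc6*, *Cacng8* and *Kcnmb4* upward and *P2rx6*, *Cacnb4*, *Cacna1d*, *Cacna1h* and *Kcng4* downward, the last 7 of these 9 being named after their values were seen. *Kcng4* and *Cacnb4*, with mean counts of 9.17 and 26.3, had log2 fold changes of -2.60 and -2.08. These were larger falls than that of *Scn7a*. *Cacna1h*, the T-type pore Cav3.2, had 36, 26 and 30 counts in vehicle and 13, 4 and 9 counts in TGFβ libraries (log2 fold change -1.68, SE 0.35, adjusted p = 0.00677, edgeR), the opposite direction to *Cacna1g*. The third T-type gene, *Cacna1i*, had a mean of 0.333 counts.

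Channel genes outside the symbol families were counted in a separate list of 65, of which 60 were listed and 46 tested. Of these, 12 were higher (26.1%) and 10 lower (21.7%), against 20.5% and 20.1% over all genes tested. The median change was -0.02 on the log2 scale. The pannexin *Panx1*, which releases ATP, was higher, from 24.9 ± 1.18 to 53.3 ± 3.27 CPM (SD, n = 3; log2 fold change 1.10, adjusted p = 1.55e-05, edgeR). The proton channel *Hvcn1* was lower, from 62.3 ± 5.80 to 27.5 ± 5.63 CPM (SD, n = 3; log2 fold change -1.18, adjusted p = 0.000538, edgeR). The other changes of at least 1 on the log2 scale were in genes of under 2 CPM, among them *Best1* and the epithelial sodium channel subunit *Scnn1a*, both lower (-1.45 and -1.04).

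A list of 29 genes whose products bind or regulate channels had 23 listed and 17 tested, with 2 higher (11.8%) and 8 lower (47.1%), against 20.5% and 20.1% over all genes tested, and its median change was -0.53 on the log2 scale. *Rem1*, *Gem* and *Rrad* encode RGK GTPases, known as inhibitors of high-voltage-activated calcium channels that act through the β subunit. *Rem1* was at 4.91 ± 0.714 CPM in vehicle and 1.41 ± 0.163 CPM with TGFβ (SD, n = 3; log2 fold change -1.80, adjusted p = 0.000146, edgeR). *Gem* and *Rrad* had log2 fold changes of -1.02 and -0.82 (adjusted p = 0.00346 and 0.0015, edgeR). These 3 inhibitor genes were thus lower, as were the β subunit genes *Cacnb1*, whose call was lost under some alternatives, and *Cacnb3*. Of the β subunit genes below the count minimum, *Cacnb4* was lower and *Cacnb2*, named after its values were seen, was not called (log2 fold change 0.48, adjusted p = 0.145, edgeR). *Ostm1*, the obligate partner of the *Clcn7* product, was higher by 0.17 while *Clcn7* was lower (adjusted p = 0.0124, edgeR). *Amigo1*, which encodes a membrane adhesion protein, was at 9.31 ± 1.38 CPM in vehicle and 4.63 ± 0.507 CPM with TGFβ (SD, n = 3; log2 fold change -1.01, adjusted p = 0.000963, edgeR). The remaining calls were *Nedd4l*, *Fgf13*, *Fgf11* and *Ank3* downward and *Pkd1*, which stands in both of these lists, upward.

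Over the 250 bases before the start, CAGAC on either strand occurred in 17 of the 40 channel promoters (42.5%) and in 42.1% of all 27025 promoters listed. It was found in 3 of 9 promoters of genes called higher and in 8 of 13 of genes called lower. TGANTCA occurred in 5% of channel promoters and 6.87% of all, the TEAD letters GGAATG on either strand in 17.5% and 12.6%, and TATAAA in 2.5% and 13%. The GC box GGGCGG was in 52.5% of channel promoters and 32.9% of all, and channel promoters had a median GC content of 59.4% against 52%. The letters were searched without regard to overlap between motifs, and a match describes the sequence only.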

How the data were processed

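RNA from 3 vehicle and 3 TGFβ cultures was sequenced as stranded poly(A) libraries. The authors aligned the reads to mm10 and, per the labels, used DESeq2. The deposited table gives raw whole-number read counts for each gene in each library. The counting program and its use of strand are not given in the sources used here. The table also holds the authors' mean of normalized counts, fold changes and p-values, which were not used. Its columns carry the name of a group alone, and libraries are therefore named by group and total count.

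Counts were analysed with edgeR 4.0.16 in R 4.3.3 (TMM scaling, filterByExpr, quasi-likelihood test, Benjamini-Hochberg adjustment, adjusted p below 0.05). The SE is the log2 fold change divided by the root of F, and 95% intervals use the fit's degrees of freedom. CPM are on TMM-scaled library sizes, and CPM per kb use the exon union of GENCODE M21 on GRCm38. The depth was 27851677 to 31072338 counts per library, which leaves counting error largest in the genes near the minimum. The 6 pairs of replicates differed by more than sampling noise, with a chi-square of 7.93 to 26.8 per gene against 1 for counting error alone, so none was a duplicate.

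DESeq2 1.42.0, limma-voom 3.58.1, other scalings and filters, and leaving out each library were the alternatives. Genes with values in every library are the 10 largest called rises and falls, the leader of each class by level, and the genes next to the count minimum, while other members are given by summary or for a named contrast. The members and lists were chosen with earlier results of these data known. The steps were tested on simulated counts. Exon overlaps and 75-base windows shared with other genes were computed from GENCODE transcripts, and promoters were taken from RefSeq (GRCm38.p6). ATAC-seq data of the study were not analysed here. Some genes counted in the totals are not reported here by name.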

Additional observations from a re-analysis of the deposited data

How the results depend on the processing

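Of the 27 called channel genes, 21 kept their call under all 12 alternatives (DESeq2 size factors, upper quartile scaling, DESeq2, limma-voom, 2 filters on low counts, and leaving out each of the 6 libraries). The other 6, *Cacna1a*, *Cacnb1*, *Clcn6*, *Clcn7*, *Kcnn1* and *Kcnn3*, lost it at least once, and 9 of the 26 genes not called, among them *Kcnj2*, *Kcnd1*, *Trpm6*, *Cacna1c* and *Ano3*, gained one at least once. No called gene changed direction. The 11 higher and 16 lower became 10 and 17 with DESeq2, 11 and 16 with limma-voom, and 11 and 19 with upper quartile scaling. At an adjusted p of 0.01, 3595 genes were called, against 5828. Among channel genes, 10 were then higher and 8 lower, against 11 and 16. At a change of 1 or more on the log2 scale, 971 genes were called, with 4 channel genes higher and 3 lower. With a mean count of at least 200 for membership, 7 of 30 channel genes were higher and 12 lower. At a minimum of 20 counts, 14 of 68 were higher and 19 lower. A background share was not taken at these other minimums. Leaving out 1 library gave 4489 to 5481 genes called, 10 to 12 channel genes higher and 12 to 16 lower, 10 to 12 higher and 7 to 11 lower among the other channel genes, and 2 to 3 higher and 8 lower among the partner genes. The cause of these changes was not tested, beyond the fewer samples or genes. The median log2 fold change of all genes tested was -0.0013 in the main fit. With upper quartile scaling it was -0.0225, and with DESeq2 size factors -0.0066. Outside the count minimum, the *Trpc6* call was lost without the vehicle libraries of 29296570 and 29331999 counts or the TGFβ library of 28641986 counts (adjusted p = 0.091, 0.0678 and 0.0872). Depth limits the genes near the minimum most. No paired analysis was possible because the columns carry no replicate numbers.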
